A study of Homo sapiens with 4 samples.

Results

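The zinc finger genes described here are 40 genes of the long arm of chromosome 19, bands 19q13.33 to q13.42, which lie between 50025714 and 53580269 of GRCh38, an interval of 3.55 Mb. They were chosen by name as the zinc finger genes of this interval, because an earlier reading of the same 4 libraries had found its zinc finger genes higher after METTL16 knockout. Their level in METTL16 KO against sgNS is therefore given below as a description, without a test. Of the 40 genes, 38 were among the 18806 gene symbols of the expression table. ZNF525 and ZNF577 were not among those symbols and were not analysed here for expression.

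RNA-seq was performed in Huh7, a line established from a human hepatocellular carcinoma. All cells came from 1 clone that stably expressed Cas9 and had been transduced with a lentiviral guide, either a non-targeting guide (sgNS, 2 libraries) or a guide against METTL16, which encodes an RNA methyltransferase (METTL16 KO, 2 libraries). The labels name the METTL16 KO libraries sgMETTL16-1 and sgMETTL16-2, and the numbers are read here as replicates of 1 guide, as for sgNS. On that reading, a change made by METTL16 loss and a change made by this guide cannot be told apart. In the labels this group is named as a knockdown. Values are TPM, which scale transcript abundance to the same total in every library. No read counts can be had from them, and the depth is unknown. METTL16 itself was listed at 26.29 and 25.14 TPM with sgNS and at 17.62 and 18.75 TPM after METTL16 KO. The log2 fold change was -0.50 (standard error 0.062), and limma gave a Benjamini-Hochberg adjusted p over all genes of 2.4e-05. Hepatoma transcripts were abundant, with the serum albumin gene ALB between 7437 and 10079 TPM. Of 10 markers of other cell types, LYZ (lysozyme, 909 to 1553 TPM), PECAM1 (2.70 to 5.14 TPM) and PDGFRB (0.76 to 1.65 TPM) reached a mean of 1 TPM, all 3 lower after METTL16 KO, and the other 7 stayed between 0 and 1.05 TPM. Their part in the results was not tested.

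Proteins of this family bind DNA through tandem C2H2 fingers, each of which holds a zinc ion between paired cysteines and histidines and reads a few bases. Most carry a KRAB domain, which recruits TRIM28 (KAP1) and, through it, the H3K9 methyltransferase SETDB1, so that the sites they bind, many of them in transposable elements, are packed into heterochromatin. The genes arose by repeated tandem duplication, which left large clusters of related copies on chromosome 19, and the bodies of many of them carry H3K9 trimethylation themselves.

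In the canonical transcripts of GENCODE 44, 38 of the 40 genes encode a match to a KRAB pattern. The exceptions are ZNF473 and ZNF83. The number of C2H2 fingers found by pattern ranged from 7, in ZNF577 and ZNF701, to 26, in ZNF845, with a median of 13. Protein length ranged from 462 residues in ZNF610 to 970 in ZNF845. Over all 780 pairs of members, the median identity of the aligned proteins was 39.5%. The closest pair was ZNF611 and ZNF600, with 79.6% identity, followed by ZNF841 and ZNF836, with 73.2%.

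The relatedness extends to the promoters. RefSeq windows (GRCh38.p14) from 250 bases before to 50 bases after the annotated start of transcription were at hand for 32 of the 40 genes. All 9-base words of these windows were counted on both strands, and the word with the largest excess over all protein-coding genes was ACCCGGAAG. It contains CCGGAAG, the core that transcription factors of the ETS family recognise. The word was found in 17 of 32 members (53.1%), in 10 of 184 zinc finger genes elsewhere on chromosome 19 (5.43%), in 9 of 214 zinc finger genes of other chromosomes (4.21%) and in 289 of 15842 protein-coding genes (1.82%). It was chosen for this excess, so the shares are a description. In each of the 17 members a copy began 1 to 14 bases downstream of the start site, and in 9 of them exactly 2 bases downstream, always on the transcribed gene's sense strand. The following windows, from 35 bases before the start site to the 25 bases that begin with it, are printed 5′ to 3′ on the strand of the gene for members spread over the cluster, with the word in capitals.
ZNF841 (chr19:52095741-52095800, minus strand): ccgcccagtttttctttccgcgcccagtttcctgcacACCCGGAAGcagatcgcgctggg
ZNF766 (chr19:52269552-52269611, plus strand): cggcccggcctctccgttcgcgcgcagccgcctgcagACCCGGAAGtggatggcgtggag
ZNF808 (chr19:52527633-52527692, plus strand): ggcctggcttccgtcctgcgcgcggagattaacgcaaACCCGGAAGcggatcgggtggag
ZNF611 (chr19:52735020-52735079, minus strand): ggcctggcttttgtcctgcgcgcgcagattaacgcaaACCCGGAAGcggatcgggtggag
ZNF816 (chr19:52962857-52962916, minus strand): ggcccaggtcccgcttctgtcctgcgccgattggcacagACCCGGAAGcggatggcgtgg
ZNF160 (chr19:53103398-53103457, minus strand): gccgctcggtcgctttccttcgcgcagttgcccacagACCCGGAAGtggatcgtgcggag
ZNF845 (chr19:53333714-53333773, plus strand): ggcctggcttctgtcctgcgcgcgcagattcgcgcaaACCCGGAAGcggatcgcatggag
ZNF765 (chr19:53395114-53395173, plus strand): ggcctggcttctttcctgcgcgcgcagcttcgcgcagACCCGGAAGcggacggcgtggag
In the windows printed, the word sits at nearly the same place in genes that lie far apart, and the bases around it are alike in several. In members not printed it began further downstream, by 12 bases in ZNF880, ZNF528, ZNF578 and ZNF525 and by 14 in ZNF813. The next windows lack the exact word. ZNF468 and ZNF761 are shown because a sequence with 1 substitution stands at its usual place (C4A, counted from 1 at the 5′ end of the word), and ZNF613 and ZNF350 because they had the largest changes among members with a window but without it or a near copy at the start.
ZNF468 (chr19:52857595-52857654, minus strand): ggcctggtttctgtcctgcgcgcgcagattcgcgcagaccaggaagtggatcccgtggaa
ZNF761 (chr19:53431949-53432008, plus strand): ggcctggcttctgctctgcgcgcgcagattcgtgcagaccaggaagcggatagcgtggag
ZNF613 (chr19:51927437-51927496, plus strand): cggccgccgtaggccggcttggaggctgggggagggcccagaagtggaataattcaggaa
ZNF350 (chr19:51986816-51986875, minus strand): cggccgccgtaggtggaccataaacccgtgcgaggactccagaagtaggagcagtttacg
With up to 1 mismatch allowed, 25 of 32 members (78.1%) held the word, against 29.3% of the zinc finger genes elsewhere on chromosome 19, 26.6% of those on other chromosomes and 16.4% of all protein-coding genes. The ETS core alone, part of the longer word, was found in 22 of 32 members (68.8%), in 81 of 184 zinc finger genes elsewhere on chromosome 19, in 76 of 214 on other chromosomes (35.5%) and in 16.5% of all genes. The other motifs, each searched on both strands, differed less between members and all genes in percentage points. The GC box GGGCGG was present in 81.3% of members and 64.3% of all genes, CCAAT in 31.3% and 42.1%, and TATAAA in 3.13% and 12.4%. The E box CACGTG was present in 6.25% and 10.9%, and the AP-1 word TGANTCA in 21.9% and 8.04%. Against zinc finger genes elsewhere on chromosome 19, the gap was wider for CCAAT (61.4% in those genes) and for AP-1 (4.35%). It was narrower for the GC box (69.6%), TATAAA (3.26%) and the E box (4.89%). Windows of members held a median of 23 CpG dinucleotides, against 21 over all windows. A match says only that these letters are present.

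**Figure D1:**
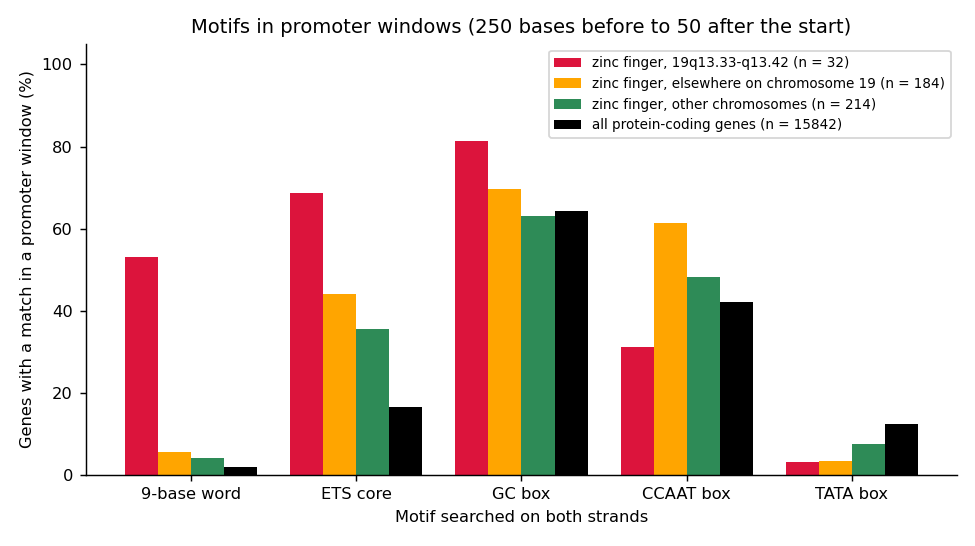
Share of genes (%, vertical axis) with a match to each motif in a window from 250 bases before to 50 after the start, for 4 groups of genes shown as bars. The 9-base word separates the members (53.1%) from all protein-coding genes (1.82%), while GC, CCAAT and TATA boxes do so less.

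Of the 38 members in the table, 35 had a mean of at least 1 TPM over the 4 libraries and were fitted with the other genes, 11971 in all, on log2(TPM + 0.1) with limma. Fold changes below are on this scale and come out too small for genes near 0. In each of the 35, both METTL16 KO libraries lay above both sgNS libraries, which was so for 56.8% of all genes fitted. At an adjusted p under 0.05, 32 of the 35 were called higher and 0 lower, against 50.1% of all genes higher and 25.6% lower, and 3 were not called (ZNF836, ZNF665 and ZNF765). Since the members were chosen on this contrast, nothing is read from these counts. The size of the change was at least 1.5-fold in 28 members, against 19.5% of all genes, and at least 2-fold in 9, against 7.71%. The median log2 fold change was 0.77, with a range from 0.14 to 1.70, and the median over all genes was 0.16. Median-ratio scaling, which gives each library a factor taken from its typical gene, removed the shift of all genes. With it, the median of the members was 0.61, and 33 of the 35 were above 0.

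The summed TPM of the 38 listed members was 348.92 and 358.8 in sgNS and 634.96 and 615.02 in METTL16 KO, a ratio of 1.77. ZNF766, ZNF468 and ZNF28 each made up about the same share of the sum in sgNS, at 7.20%, 7.13% and 7.05%. In METTL16 KO, ZNF28 took 8.98% and ZNF766 took 5.48%, so that ZNF28 became the most abundant transcript of the cluster.

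**Figure D2:**
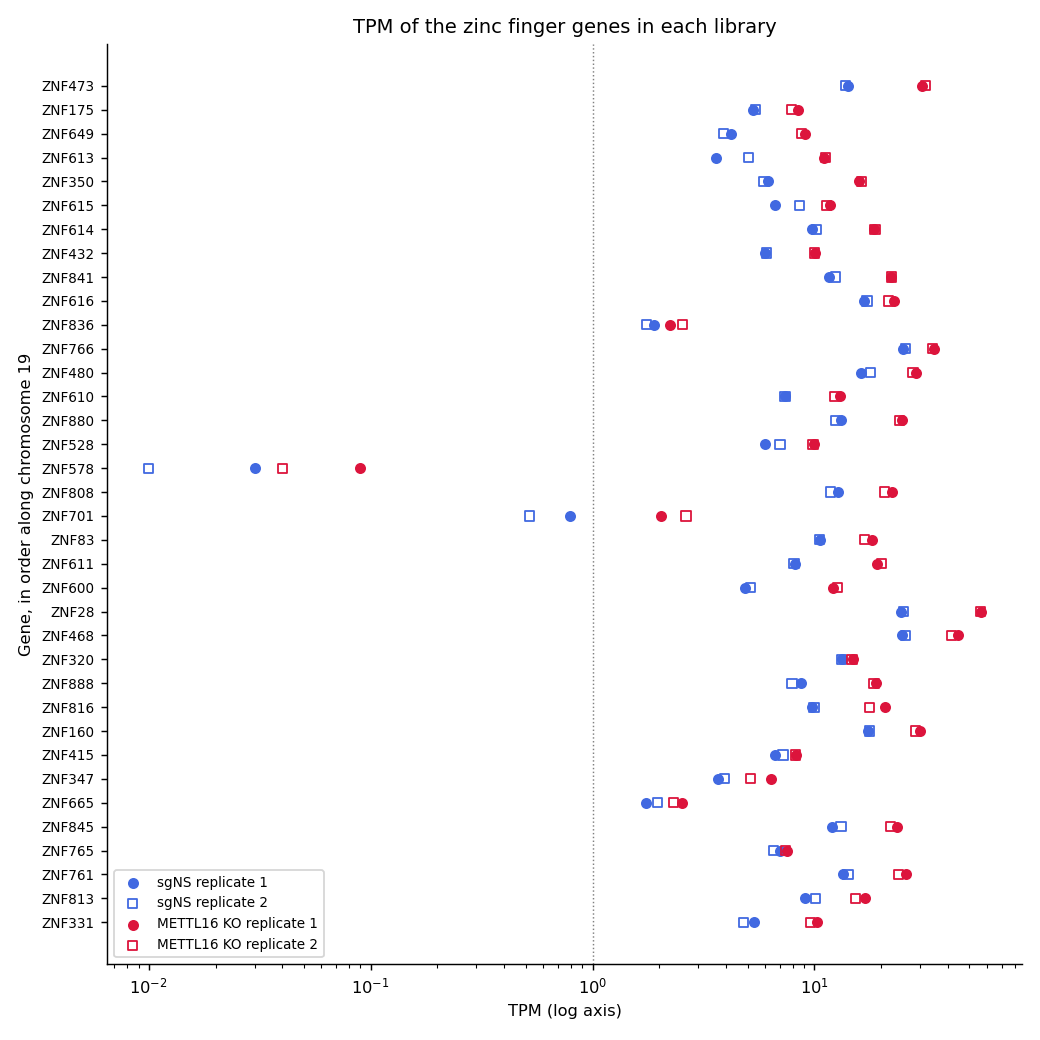
TPM (log axis) of each member listed above 0, in chromosome order, in the 2 sgNS and the 2 METTL16 KO libraries, with the dotted line at 1 TPM. In every row the METTL16 KO points lie to the right of the sgNS points, with the narrowest gaps for ZNF765 and ZNF320.

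The first stretch of the interval, from ZNF473 to ZNF432, held 8 members with values, and its median log2 fold change was 1.00. ZNF473 (ZFP100) is a component of the U7 snRNP pathway, which cuts the 3′ ends of replication-dependent histone transcripts. It was listed at 14.22 and 13.80 TPM with sgNS and at 30.64 and 31.61 TPM after METTL16 KO (log2 fold change 1.15, standard error 0.059). ZNF473 overlaps VRK3 on the other strand by 233 bases, and whether the counting used strand is not given in the sources used here. ZNF175 (OTK18), known as a repressor of the HIV promoter in macrophages, changed from 5.29 and 5.43 TPM to 8.43 and 7.91 TPM. ZNF649, which has been mapped to LINE-1 elements, was at 4.22 and 3.88 TPM with sgNS and at 9.03 and 8.74 TPM after METTL16 KO. The level of both was low in sgNS and clearly apart from that in METTL16 KO. ZNF350 (ZBRK1) binds BRCA1 and represses GADD45A, and had 6.17 and 5.93 TPM with sgNS against 15.84 and 16.28 TPM after METTL16 KO. Its log2 fold change of 1.39 (standard error 0.077) was the largest of this stretch, next to 1.37 (standard error 0.14) for ZNF613, at 3.59 and 5.04 against 11.06 and 11.23 TPM. The sgNS libraries of ZNF613 and ZNF615 differed more than those of their neighbours. ZNF615 was at 6.66 and 8.54 TPM with sgNS and at 11.78 and 11.32 TPM after METTL16 KO. ZNF614 had 9.80 and 10.25 TPM against 18.55 and 18.76 TPM, and ZNF432 had 5.98 and 6.07 TPM against 10.08 and 10.03 TPM. All 8 genes were at least 1.5-fold higher, and 4 were at least 2-fold higher.

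From ZNF841 to ZNF528 the changes were smaller, with a median log2 fold change of 0.67 over 8 members and none at 2-fold. ZNF841 was at 11.65 and 12.44 TPM with sgNS and at 22.25 and 22.31 TPM after METTL16 KO (log2 fold change 0.88). Its closest relative ZNF836, at 1.89 and 1.75 against 2.23 and 2.54 TPM, had 0.37 (standard error 0.16). The members of this closely related pair thus differed in level by several fold and in the size of the change. ZNF616 had 16.70 and 17.25 TPM with sgNS and 22.94 and 21.55 TPM after METTL16 KO, and ZNF766 had 25.14 and 25.78 TPM against 34.59 and 33.93 TPM. ZNF480 was at 16.27 and 17.88 TPM against 28.78 and 27.85 TPM. These abundant genes of the cluster moved less than 2-fold. ZNF610 had 7.38 and 7.37 TPM with sgNS and 13.04 and 12.33 TPM after METTL16 KO, ZNF880 had 13.15 and 12.48 TPM against 24.73 and 24.26 TPM, and ZNF528 had 6.02 and 7.00 TPM against 10.01 and 9.86 TPM. The annotated spans of ZNF432 and ZNF841, introns included, overlap by 31274 bases on the same strand. In the canonical transcript of ZNF841, 1.69% of the stretches as long as a read were shared with another gene, and in that of ZNF432 0%. How reads were split between them was not tested.

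The stretch from ZNF534 to ZNF468 had the highest median log2 fold change, 1.17 over its 7 members in the fit. It also held both extremes of level. ZNF534 was listed at 0 in all 4 libraries and ZNF578 at 0.03 and 0.01 TPM with sgNS and 0.09 and 0.04 TPM after METTL16 KO, so these neighbours were close to undetected in both groups. ZNF28 was the most abundant member in METTL16 KO, at 24.66 and 25.20 TPM with sgNS and 56.26 and 56.00 TPM after METTL16 KO, with a log2 fold change of 1.17 (standard error 0.049). It overlaps ZNF468 by 19591 bases on the same strand, and ZNF468 had 24.72 and 25.74 TPM against 44.52 and 41.58 TPM. Both members of the overlapping pair were higher. The most similar pair, ZNF611 and ZNF600, also moved alike. ZNF611, which binds SVA retrotransposons, was at 8.20 and 8.09 TPM with sgNS and at 19.14 and 20.08 TPM after METTL16 KO (log2 fold change 1.26, standard error 0.070). ZNF600 was at 4.86 and 5.16 TPM against 12.18 and 12.73 TPM (1.30, standard error 0.086). ZNF808, whose loss in humans prevents formation of the pancreas and which binds MER11 elements, had 12.78 and 11.82 TPM with sgNS and 22.40 and 20.78 TPM after METTL16 KO. ZNF83, without a KRAB match, had 10.60 and 10.56 TPM against 18.25 and 16.82 TPM. The largest log2 fold change of all members, 1.70, came with the widest error, 0.25, in ZNF701. It was at 0.79 and 0.52 TPM with sgNS and at 2.03 and 2.64 TPM after METTL16 KO, and it shares 8643 bases of its span with ZNF808.

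From ZNF320 to ZNF677 the members differed most among themselves, with log2 fold changes from 0.16 to 1.17 and a median of 0.59 over 7 in the fit. ZNF888 was at 8.68 and 7.92 TPM with sgNS and at 18.93 and 18.55 TPM after METTL16 KO, while ZNF320, its neighbour, moved from 13.34 and 13.29 TPM to 14.94 and 14.78 TPM. ZNF320 kept its libraries apart only by a narrow gap, and its log2 fold change of 0.16 was about the median of all genes and turned to -0.0072 after median-ratio scaling and -0.016 after quantile normalization. ZNF816 had 9.75 and 9.95 TPM with sgNS and 20.91 and 17.72 TPM after METTL16 KO. A readthrough transcript listed separately, ZNF816-ZNF321P, had 2.17 and 1.94 TPM against 4.78 and 4.54 TPM. ZNF160, reported to repress TLR4 in intestinal cells, was at 17.47 and 17.74 TPM with sgNS and at 29.81 and 28.66 TPM after METTL16 KO. Smaller changes were seen at the far end of this stretch. ZNF415 had 6.64 and 7.22 TPM against 8.29 and 8.23 TPM, and ZNF347, whose span it overlaps by 9006 bases, had 3.66 and 3.93 TPM against 6.39 and 5.16 TPM. ZNF665 was at 1.74 and 1.97 TPM with sgNS and at 2.52 and 2.32 TPM after METTL16 KO. ZNF677 was listed at 0 in all 4 libraries.

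The last stretch ran from ZNF845 to ZNF331, with a median log2 fold change of 0.85 over 5 members. ZNF845, the member with the most fingers, was at 12.02 and 13.17 TPM with sgNS and at 23.62 and 22.11 TPM after METTL16 KO. ZNF761 had 13.39 and 14.17 TPM against 25.99 and 24.02 TPM, and ZNF813 had 9.10 and 10.12 TPM against 16.94 and 15.34 TPM. These were raised to a similar degree. ZNF765 between them, mapped to LINE-1 elements like ZNF649, was at 7.00 and 6.53 TPM with sgNS and at 7.51 and 7.38 TPM after METTL16 KO. Its log2 fold change of 0.14 (standard error 0.090) was the smallest of all members, below the median of all genes, and was -0.026 with median-ratio scaling. ZNF331, an imprinted gene studied as a tumour suppressor, closed the interval with 5.36 and 4.80 TPM against 10.26 and 9.57 TPM.

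**Figure D3:**
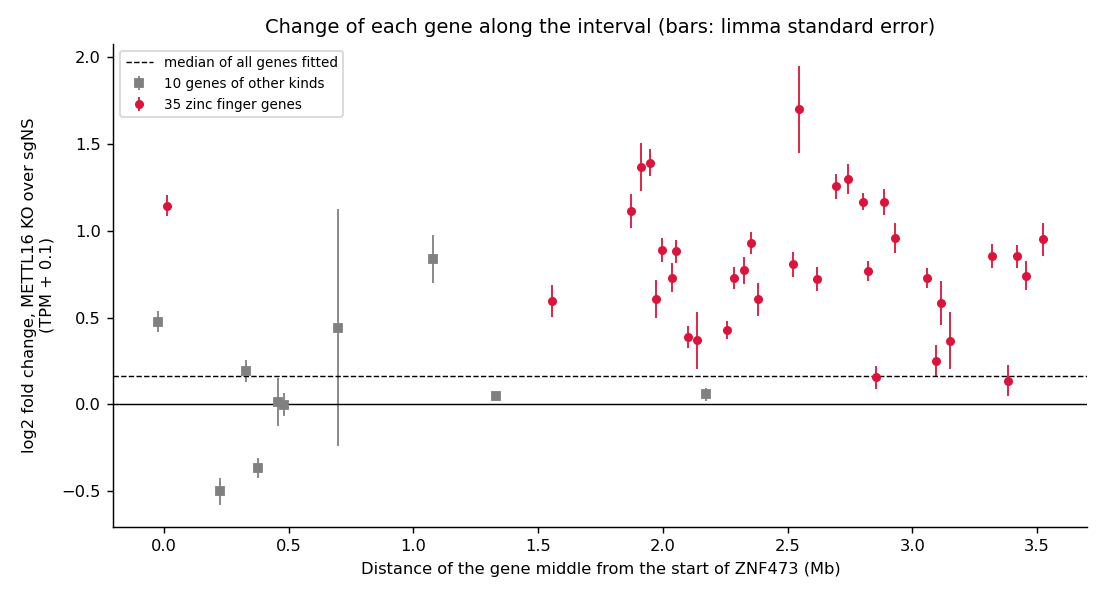
log2 fold change (vertical axis, with limma's standard error as bars) of the 35 members and of 10 genes of other kinds, by distance in Mb from the start of ZNF473. Members lie above 0 throughout, and the other genes lie on both sides of 0. All of the other genes but PPP2R1A lie before ZNF175, so PPP2R1A alone stands among the later members.

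Along the interval, neighbouring members did not carry like changes in any clear way. The log2 fold changes of adjacent members had Pearson's r of 0.18 and Spearman's rho of 0.15 over 34 neighbouring pairs. Across the 35 members the log2 fold change had r of -0.20 and rho of -0.075 with the sgNS level, -0.13 and -0.11 with the number of fingers, and -0.23 and -0.22 with transcript length. These are descriptions across genes that share the same 4 libraries. The order of the members was alike in the replicates, with r of 0.83 and rho of 0.92 between the log2 fold changes of replicate 1 and of replicate 2. Within a group, the replicates of a member differed by a median of 0.085 in sgNS and 0.057 in METTL16 KO on the log2 scale.

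Reads shared between copies were looked at by sequence. Of the 40 canonical transcripts, 21 had no stretch as long as a read in common with a transcript of another gene, and the highest share of such stretches was 11.5%, in ZNF836. The median log2 fold change was 0.73 over the 18 fitted members without a shared stretch and 0.88 over the 17 with such a stretch. The 13 fitted members with the word had a median of 0.74 and a range from 0.14 to 1.26, and the 14 with a window that lacked the exact word, near copies included, had a median of 0.75 and a range from 0.25 to 1.70. The 8 fitted members without a window had a median of 1.13. Among zinc finger genes outside the list, the 18 fitted with the word had a median of 0.43 and the 313 without it had 0.37.

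Of 61 genes of other kinds in or reaching into the same interval, 10 were abundant enough to be fitted, with a median log2 fold change of 0.054. VRK3 reaches in only by its overlap of 233 bases with ZNF473. With limma and Benjamini-Hochberg adjustment over all genes, 3 were higher, against 50.1% of all genes (VRK3 with 0.48, NR1H2 with 0.19 and CTU1 with 0.84), 2 were lower, against 25.6% (MYH14 with -0.50 and POLD1 with -0.37) and 5 were not called. After median-ratio scaling, NR1H2 was at 0.025. The remaining ones include CLEC11A, at 0.44 with a standard error of 0.68, and JOSD2, at -0.0019, which was called lower after median-ratio scaling (-0.17, limma adjusted p = 0.037) and quantile normalization (-0.19, limma adjusted p = 0.020). The difference between these genes and the members was not tested. Of the fitted genes of other kinds, all but PPP2R1A lie before ZNF175, with ZNF473 as the only member beside them. PPP2R1A, which encodes a scaffold subunit of protein phosphatase 2A and lies between ZNF836 and ZNF766, was at 210.67 and 197.49 TPM with sgNS and at 211.26 and 213.50 TPM after METTL16 KO. It was picked out after its values were seen. Its log2 fold change was 0.058 (limma adjusted p = 0.19), and -0.11 after median-ratio scaling (limma adjusted p = 0.026). It was 0.0070 after quantile normalization and ranged from 0.012 to 0.10 with each library left out. Beyond the edges, ZNF114, 1738 kb towards the centromere, had 0.42 and 0.57 TPM with sgNS and 0.89 and 1.16 TPM after METTL16 KO. ZNF628, 1896 kb towards the telomere, had 7.38 and 6.79 TPM against 7.40 and 7.56 TPM.

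Zinc finger genes elsewhere were also higher on the whole, but by less. Of 173 fitted on the rest of chromosome 19, 126 were called higher and 6 lower, with a median log2 fold change of 0.41, and 64 were at least 1.5-fold higher. Of 203 on other chromosomes, 126 (62.1%) were higher and 22 lower, with a median of 0.36, and 52 (25.6%) were at least 1.5-fold higher. Over all genes, 50.1% were called higher, 25.6% lower, and 19.5% were at least 1.5-fold higher. The medians of the zinc finger genes elsewhere were 0.25 and 0.20 after median-ratio scaling. The difference between the members and these groups was not tested, because the interval was chosen for its high values.

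**Figure D4:**
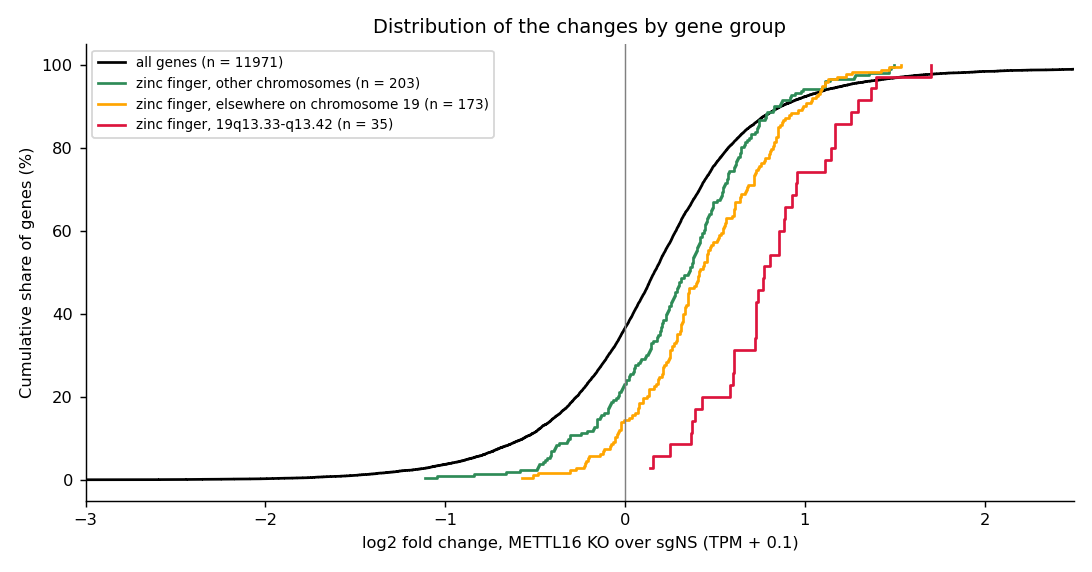
Cumulative share of genes (%) by log2 fold change for all fitted genes and for 3 groups of zinc finger genes, with changes beyond the axis limits cut off. The curve of the 35 members starts at 0.14 and lies to the right of the others over most of its length, with medians of 0.77 for the members and 0.16 for all genes.

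The proteins through which KRAB zinc finger proteins and H3K9 methylation work were examined as a list of 25 genes, all of them fitted. At an adjusted p under 0.05 with limma, 10 of the 25 were higher, against 50.1% of all genes, 7 were lower, against 25.6%, and 8 were not called. These counts are not far from the shares over all genes, and the list's median of 0.052 was below that of all genes. TRIM28, the corepressor bound by the KRAB domain, was at 375.34 and 355.64 TPM with sgNS and at 333.17 and 320.90 TPM after METTL16 KO, and its log2 fold change was -0.16 (standard error 0.036, limma adjusted p = 0.0020). SETDB1, the methyltransferase it recruits, was at 26.44 and 25.50 TPM against 31.24 and 32.44 TPM, a change of 0.29 (limma adjusted p = 5.3e-04). The call of SETDB1 was lost after median-ratio scaling (0.13, limma adjusted p = 0.053) and quantile normalization (0.11, limma adjusted p = 0.086), and that of TRIM28 without METTL16 KO replicate 2 (-0.13, limma adjusted p = 0.055). The largest rises in the list were in demethylases of H3K9, KDM4A with 0.63 and KDM4B with 0.37, followed by PPHLN1, a subunit of the HUSH complex, with 0.31. SUV39H1 was called at 0.29, ZNF274, a KRAB zinc finger protein that binds the 3′ ends of other zinc finger genes, at 0.27, EHMT1 at 0.23, KDM4C at 0.21, SMARCAD1 at 0.20 and HDAC2 at 0.15. After median-ratio scaling the last 5 of these were no longer called, with ZNF274 at 0.11, EHMT1 at 0.062, KDM4C at 0.049, SMARCAD1 at 0.030 and HDAC2 at -0.018. KDM4C also lost its call without a filter and without sgNS replicate 1, sgNS replicate 2 or METTL16 KO replicate 2 (0.22, 0.20 and 0.14), and SMARCAD1 without sgNS replicate 1 (0.14) or METTL16 KO replicate 1 (0.16). The largest falls were in UHRF1, a reader of H3K9 methylation at replicated DNA, with -0.65, in the chromatin remodeller ATRX, with -0.40, and in the heterochromatin protein CBX3 (HP1 gamma), with -0.28. SUV39H2 also fell by 0.28, CHD4 fell by 0.27 and ADNP fell by 0.20. With median-ratio scaling, 4 of the 25 genes of the list were higher and 12 lower. Over all 11971 genes, 4359 were higher and 4375 lower with that scaling. The difference was not tested.

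**Figure D5:**
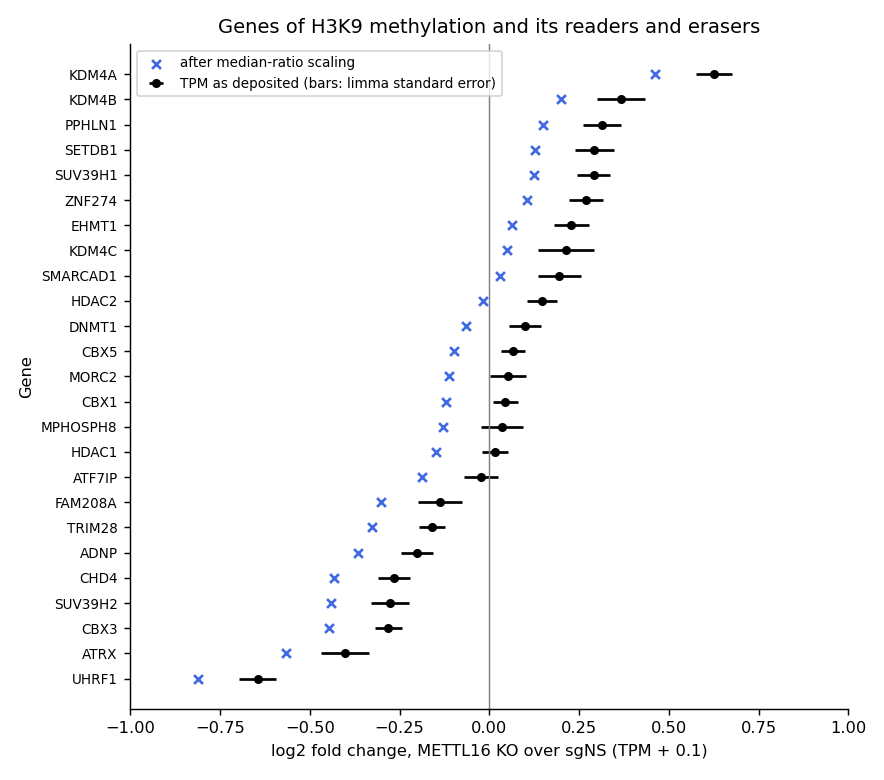
log2 fold change (horizontal axis) of the 25 genes of H3K9 methylation, from UHRF1 at -0.65 to KDM4A at 0.63, with limma's standard error as bars. Crosses give the same genes after median-ratio scaling, which moves every gene to the left. HDAC2, DNMT1, CBX5, MORC2, CBX1, MPHOSPH8 and HDAC1 cross 0, and of these only HDAC2 had been called.

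Partners and reported targets of members were read beside them. LSM10, which with LSM11 forms part of the U7 snRNP that ZNF473 joins, had 50.46 and 46.93 TPM with sgNS and 66.42 and 61.04 TPM after METTL16 KO, a log2 fold change of 0.39 that passed in limma. LSM11 (0.27) and SLBP (0.079), which binds the histone stem-loop, did not pass. BRCA1, the partner of ZNF350, was at 15.71 and 15.73 TPM against 21.18 and 19.57 TPM, a change of 0.37 (limma adjusted p = 3.5e-04). GADD45A, reported as repressed by ZNF350, had 24.76 and 23.46 TPM with sgNS and 25.69 and 30.24 TPM after METTL16 KO, a change of 0.21 (limma adjusted p = 0.027). The GADD45A call was lost after median-ratio scaling (0.044, limma adjusted p = 0.62), after quantile normalization (0.032), without a filter, without the trend, without sgNS replicate 2 (0.17) and without METTL16 KO replicate 2 (0.092). TLR4, the reported target of ZNF160, was between 0.01 and 0.22 TPM in all libraries and was not fitted. These lists describe transcript levels, and protein and chromatin are not measured in these libraries.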

How the data were processed

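The authors prepared libraries with a stranded kit for mRNA, while the labels also name removal of ribosomal RNA. Paired-end reads were trimmed with Cutadapt, mapped to GRCh38 with STAR and quantified with RSEM. Versions and annotation are not given in the sources used here. The deposited table holds 1 TPM value per symbol and library. The unit is called RPKM in the methods, but each library sums to 1000000.

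Genes whose mean reached 1 TPM (11971) were taken to log2(TPM + 0.1) and compared between the 2 groups by limma 3.58.1 in R 4.3.3 (lmFit, eBayes with trend), with Benjamini-Hochberg adjustment over all of them. The script was tested on simulated data. The authors state 2 biological replicates for each sequenced RNA sample. Whether these were separate transductions is not given, so the p-values may measure less than the spread between transductions. For groups of 2, the smallest two-sided p of an exact permutation test on a gene is 0.333.

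Members and lists were chosen with earlier results of these data known. All members were named, with METTL16, the list genes that were called, all partners, and up to 3 neighbouring genes with the largest changes each way. Positions are from GENCODE 44 on GRCh38, promoter windows from RefSeq. Proteins were aligned globally (BLOSUM62). Fingers and the KRAB domain were found by pattern in translated transcripts. Alternatives were median-ratio scaling, quantile normalization, pseudocounts of 1 and 0.01, no filter, a minimum mean of 5 TPM, a replicate block, no trend and each library left out.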

Additional observations from a re-analysis of the deposited data

How the results depend on the processing

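The number of members called higher was 32 of 35 as reported and 29 to 34 under the alternatives that kept all 4 libraries. Of these, the fit with a minimum mean of 5 TPM held 31 members, with 29 higher. The fit without a filter held 36, with 31 higher. Under these alternatives 0 were called lower. Over all genes, 5999 of 11971 were called higher as reported, 4359 after median-ratio scaling and 4420 after quantile normalization. With a minimum mean of 5 TPM, 5295 of 10170 were. The median log2 fold change of the members was 0.77 as reported. It was 0.61 after median-ratio scaling, 0.60 after quantile normalization, 0.75 with a pseudocount of 1, 0.81 with a minimum mean of 5 TPM, and 0.73 to 0.82 with each library left out. For their summed TPM, the log2 ratio of 0.82 became 0.65 (median-ratio) and 0.64 (quantile). Scaling also turned ZNF765, not called, to -0.026 (median-ratio) and -0.069 (quantile), ZNF320 to -0.0072 (median-ratio) and -0.016 (quantile) and HDAC2 to -0.018 (median-ratio). Of genes not called, SLBP went to -0.086 and -0.069, ZNF628 to -0.085 and -0.12, PPP2R1A to -0.11 (median-ratio only) and CLEC11A to -0.49 (quantile only). With each library left out, CLEC11A ranged from -0.69 to 1.57 and JOSD2 from -0.038 to 0.034, while scaling made JOSD2 called lower (-0.17 and -0.19). Over all genes, 66.2% of the calls were higher as reported, 49.9% after median-ratio and 51.0% after quantile scaling, and those settings move all genes by construction. Of the silencing list, 4 genes were higher and 12 lower with median-ratio scaling, and 5 were higher with quantile normalization, against 10 and 7. Of the neighbouring genes, 7 were higher without a filter, against 3 as reported. That fit takes in more of the 61 genes than the 10 fitted as reported, so the 2 counts have different bases. Over all genes, 6502 of 16350 were higher without a filter. With median-ratio scaling, 5 of the 10 neighbouring genes were lower, against 2 as reported. Over all 11971 genes, 4375 were lower with that scaling, against 3065 as reported. The cause of the remaining differences was not tested. The same-numbered libraries did not deviate together (a correlation of -0.044 over 11971 genes), and with the replicate block 31 members were higher. That fit leaves 1 residual degree of freedom. Over all members and alternatives with a test, 397 values kept direction and side of the threshold, 13 lost the call, 2 gained it and 4 turned sign. ZNF320 was called at a limma adjusted p of 0.049. Its call was lost with a pseudocount of 1, without a filter, with a minimum mean of 5 TPM and with the replicate block. It was also lost without each of the 4 libraries in turn (0.15 to 0.16). ZNF415 lost its call after median-ratio scaling (0.088) and quantile normalization (0.042). The same held without sgNS replicate 1 (0.19), METTL16 KO replicate 1 (0.25) or METTL16 KO replicate 2 (0.26). HDAC2 lost its call without METTL16 KO replicate 1 (0.12). In fits with a library left out, the lone sample was assumed to vary like the others. ZNF836 and ZNF665 passed without the trend. With depth unknown, no counting error can be given for members at low levels such as ZNF701.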
